A study of Homo sapiens with 6 samples.

Results

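The genes for the proteins of the mitochondrial ribosome, the mitoribosome, were followed in human thyroid cells exposed to a flame retardant. They were all those whose symbol, found from the Ensembl identifier, begins with MRPL or MRPS followed by a number and at most 1 further letter. The rule found 78 of the 16574 genes kept from the files, 49 of them MRPL (large subunit) and 29 MRPS (small subunit). RNA was sequenced in 6 libraries of Nthy-ori 3-1 cells, a line from normal thyroid follicular epithelium that carries the SV40 large T antigen. The BDE209 group, 3 libraries, came from cells held for 27 days in 2.5 µM decabromodiphenyl ether, a fully brominated flame retardant. The DMSO group, also 3 libraries, came from cells held as long in an equal volume of the solvent dimethyl sulfoxide. Since the labels do not call the libraries separate cultures, a p-value here reflects only how far these libraries differ from each other, and that spread may be technical. Each value is an FPKM, the number of sequenced fragments scaled to transcript length and library total, so levels of different genes can be compared.

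The mitoribosome translates the few proteins that mitochondrial DNA encodes, all of them parts of the respiratory chain or of ATP synthase. Its own proteins are encoded in the nucleus, made in the cytosol and imported. The small subunit binds the messenger RNA and reads its codons, and the large subunit joins the amino acids and releases the chain through an exit tunnel next to the inner membrane. Some members descend from bacterial ribosomal protein families and others have no bacterial relative. Symbols do not always give the place: MRPS18A and MRPS30 sit in the large subunit, and the protein of MRPS36 is a part of the 2-oxoglutarate dehydrogenase complex.

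Sequence before the starts of 4 members is shown because these genes carry the results below or share their start region with another gene, and because the letters CCAAT and CCGGAAGT recur in them. The stretches are from RefSeq, build GRCh38.p14, written 5′ to 3′ on the strand of the named member. Each ends on the base before the member's start. MRPS12 and MRPL4 have 2 listed promoters each, and for them the most upstream start was used. Capitals mark CCAAT or its reverse complement ATTGG and, in MRPL27 and MRPL20, CCGGAAGT, a form bound by ETS factors such as GABPA. MRPS12 lies on the plus strand at chr19:38930764-38930943, where the stretch fills the gap to the start of SARS2. MRPL27 lies on the minus strand at chr17:50373185-50373228, where the stretch fills the gap to the start of EME1. MRPL20 lies on the minus strand at chr1:1407294-1407443, and MRPL4 on the plus strand at chr19:10251801-10251950.
MRPS12: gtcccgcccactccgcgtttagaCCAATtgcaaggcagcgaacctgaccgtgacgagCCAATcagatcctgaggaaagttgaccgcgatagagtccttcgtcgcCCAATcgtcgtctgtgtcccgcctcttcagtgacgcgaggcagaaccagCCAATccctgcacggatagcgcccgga
MRPL27: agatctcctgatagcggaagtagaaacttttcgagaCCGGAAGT
MRPL20: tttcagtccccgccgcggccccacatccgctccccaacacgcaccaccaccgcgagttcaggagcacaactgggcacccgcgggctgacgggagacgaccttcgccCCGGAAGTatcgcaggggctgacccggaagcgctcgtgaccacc
MRPL4: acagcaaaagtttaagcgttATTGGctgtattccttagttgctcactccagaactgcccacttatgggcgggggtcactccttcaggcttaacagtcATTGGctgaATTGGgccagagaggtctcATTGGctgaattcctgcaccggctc

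The 4 CCAAT matches before MRPS12 all read forward, while the 4 before MRPL4 all read as ATTGG. In MRPL27 the CCGGAAGT match ended on the last base before the start, and in MRPL20 its last base lay 37 bases before it. The table of promoters, each 300 bases long with 250 bases before the start and 50 after it, held 85 promoters of 69 members. Both strands were searched. CCGGAAGT stood in 14 of the 85 (16.5%), against 4.14% of all 35116 promoters. AAGATGGC, a form bound by YY1 that also holds the ATG of a start codon, stood in 23 (27.1%), against 2.89% of all. Wholly before the start it stood in only 7 (8.24%), against 1.36% of all, so most of its matches reach into the bases after the start. GCGCATGC, a form bound by NRF1, stood in 6 (7.06%), against 3.05%. GGGCGG, the GC box, stood in 51 (60.0%), against 45.0%, and CACGTG, the E-box, in 9 (10.6%), against 7.26%. CCAAT, with 28 member promoters (32.9%), was close to the 34.6% of all. A match of letters is not a bound site. The 12 members with CCGGAAGT had a median difference between BDE209 and DMSO of -0.17, -0.01 and -0.20 in replicates 1, 2 and 3 on the log2(FPKM + 1) scale, and the 57 without it -0.10, 0.04 and -0.10. The 6 with GCGCATGC, at -0.03, 0.06 and -0.06, stood on the other side of the 63 without it, at -0.13, 0.02 and -0.13. Splits by AAGATGGC (-0.16 and -0.15 with it, -0.09 and -0.11 without) and by CCAAT (-0.15 and -0.16 with it, -0.10 and -0.12 without) in replicates 1 and 3 were of like size, so no motif is singled out.

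Both replicate 2 libraries stood apart from the other 4, so results are given by replicate number and without replicate 2. The total FPKM was 586204, 829739 and 567810 in BDE209 replicates 1 to 3, against 596725, 819086 and 580098 in DMSO replicates 1 to 3, and depth in fragments is not known. The thyroid follicular markers were near 0, with 1 or 2 of 10 at 1 FPKM or more in any library. Mesenchymal markers, of which 8 or 9 of 9 reached 1 FPKM, summed to 11758, 8899 and 11362 FPKM in BDE209, against 13764, 9531 and 12851 FPKM in DMSO. The sum was lower in BDE209 within each replicate number and lower in replicate 2, where all 9 markers stood below replicates 1 and 3 on average. By treatment the markers went both ways, since limma on replicates 1 and 3 called 2 lower (COL3A1 and PDGFRB) and 2 higher in BDE209 (DCN and LUM). Epithelial markers summed to between 119 and 179 FPKM, and the C cell, endothelial and immune lists to at most 74.3 FPKM. The part of other cell types in the differences of the members was not tested, and in bulk RNA fewer cells of a type and less RNA per cell cannot be told apart.

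All 78 members were listed above 0 in every library, and all 78 reached the filter for testing, which was 1 FPKM or more in no fewer than 3 libraries. The mean over the 6 libraries ran from 4.51 FPKM in MRPL42 to 277.9 FPKM in MRPL53, a 61.7-fold range, with a median of 56.5 FPKM. There were 19 members at 100 FPKM or more and 15 below 20 FPKM. The order of the members was much the same in all libraries, since the lowest Spearman correlation of member levels between any 2 libraries was 0.919 across the 78 genes, which share each library.

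In the large subunit the highest levels were those of MRPL53, MRPL51 and MRPL41, and the lowest those of MRPL50, MRPL19 and MRPL42. MRPL53 had 168.3, 484.8 and 147.1 FPKM in BDE209 replicates 1 to 3, against 178.6, 523.6 and 164.9 FPKM in DMSO replicates 1 to 3. MRPL42, at the other end, had 3.45, 6.79 and 3.13 FPKM in BDE209, against 4.06, 6.02 and 3.59 FPKM in DMSO. MRPL51 had 174.6, 450.7 and 135.2 FPKM in BDE209, against 205.9, 427.4 and 158.8 FPKM in DMSO. In these genes the replicate 2 libraries stood above the other 4 and the treatment groups overlapped. In the small subunit the highest levels were those of MRPS24, MRPS15 and MRPS34, and the lowest those of MRPS25, MRPS33 and MRPS23. MRPS33 had 5.96, 14.2 and 3.77 FPKM in BDE209, against 6.21, 12.4 and 4.45 FPKM in DMSO, and the groups again overlapped.

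**Figure D1:**
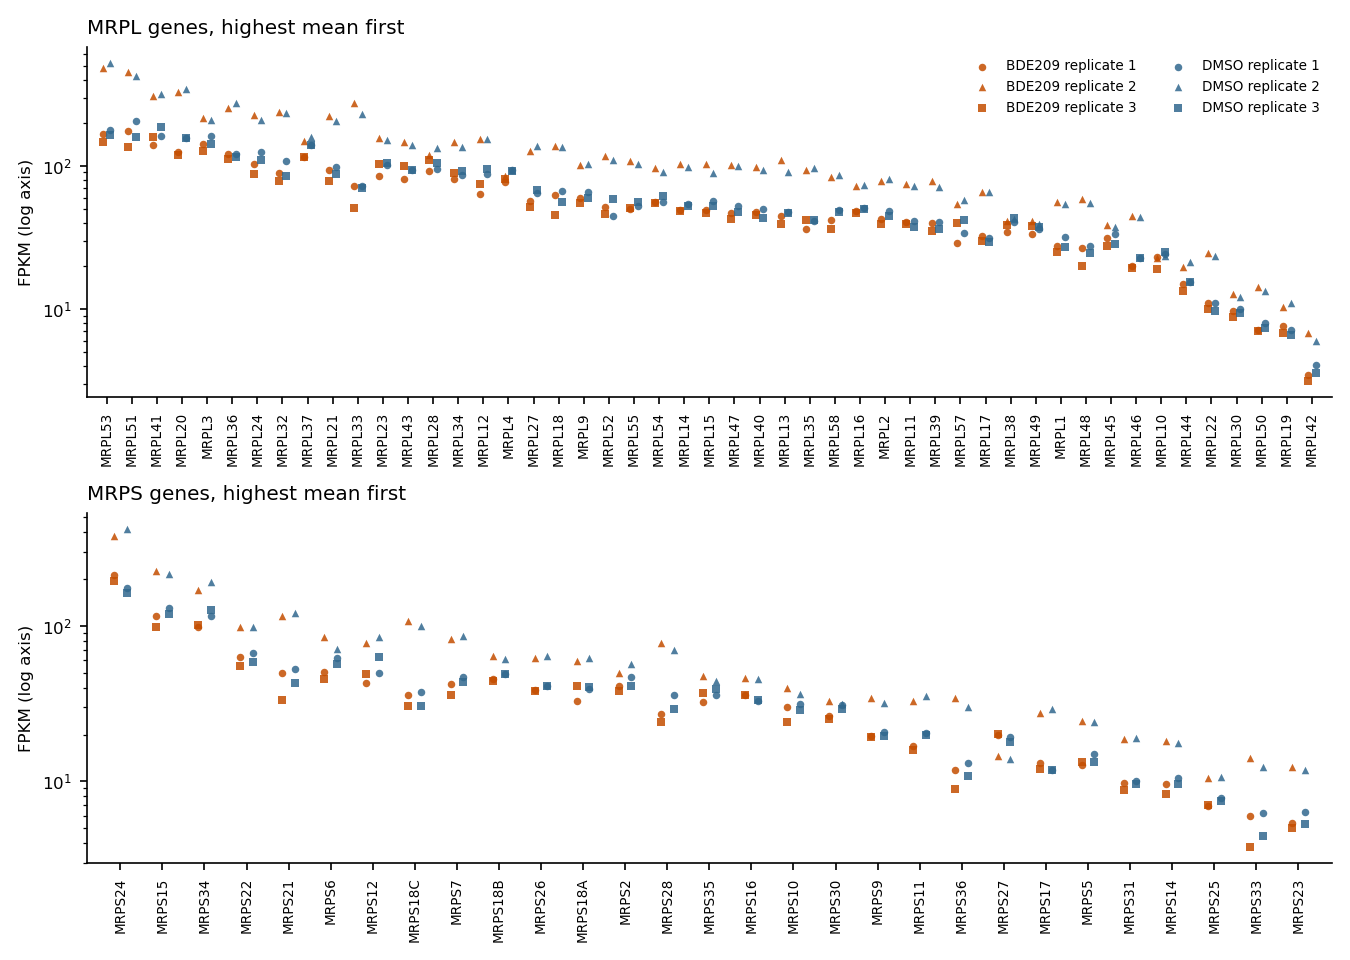
FPKM (log axis) of each MRPL gene (upper panel) and MRPS gene (lower panel), ordered by its mean, with 1 point per library: BDE209 in orange to the left of DMSO in blue, and a shape for each replicate number. Levels span 61.7-fold between genes, and the triangles of replicate 2 lie above the other points in 74 of the 78 genes.

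Summed over all members, FPKM were 4117, 8214 and 3912 in BDE209 replicates 1 to 3, against 4529, 8188 and 4361 in DMSO replicates 1 to 3. These sums were 0.702%, 0.990% and 0.689% of the library's FPKM in BDE209, against 0.759%, 1.00% and 0.752% in DMSO. The BDE209 library was thus lower in replicates 1 and 3 and level with DMSO in replicate 2, while both replicate 2 libraries held about double the summed FPKM of the rest. The summed level of the large subunit over that of the small one was 2.57, 2.99 and 2.64 in BDE209, against 2.71, 2.90 and 2.74 in DMSO. The ratio was lower in BDE209 in replicates 1 and 3 and higher in replicate 2, so the groups overlapped. A sum weighs the highest genes most, and MRPS24, the highest of the MRPS genes, was higher in BDE209 in replicates 1 and 3. The ratio of median levels was 1.52, 2.13 and 1.52 in BDE209, against 1.45, 2.05 and 1.72 in DMSO. That ratio was lower in BDE209 in replicate 3 only, so the direction in replicate 1 depends on the measure. The median member level was 49.1, 100.9 and 46.4 FPKM for MRPL genes in BDE209, against 52.3, 94.1 and 52.3 FPKM in DMSO. For MRPS genes it was 32.2, 47.3 and 30.6 FPKM in BDE209, against 36.1, 45.8 and 30.4 FPKM in DMSO.

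No member was called between BDE209 and DMSO in limma on log2(FPKM + 1) over all 6 libraries, where the threshold was a Benjamini-Hochberg adjusted p of 0.05 over 11223 genes. Of all genes 0% were called, and the lowest adjusted p of a member was 1.00. At an unadjusted p under 0.05 stood 0 members, against 1.57% of all genes (0.446% lower in BDE209). This fit held treatment only, so the distance of replicate 2 from the other libraries counts as error. Both replicate 2 libraries lay above the other 4 in 74 of the 78 members and below them in 1, against 29.8% and 42.6% of all genes. The 0 thus does not show a smaller treatment difference in the members. With the replicate number as a block, limma also called 0 members and 0% of genes, with a lowest adjusted p among members of 0.216 (MRPS34). In that fit 13 members had an unadjusted p under 0.05, 8 MRPL and 5 MRPS, all 13 with lower values in BDE209, where 6.73% of all genes did so and 16.5% passed in either direction. They were MRPL4, MRPL12, MRPL20, MRPL27, MRPL37, MRPL38, MRPL41, MRPL58, MRPS2, MRPS7, MRPS11, MRPS12 and MRPS34.

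Taken by replicate number, the BDE209 library was lower than its DMSO library in 71 of 78 members in replicate 1 (46 MRPL and 25 MRPS), where 46.8% of all tested genes were lower. In replicate 3 it was lower in 64 members (41 MRPL and 23 MRPS), against 50.1% of all genes. In replicate 2 it was lower in 32 (20 MRPL and 12 MRPS), against 44.4% of all genes. The median difference, BDE209 minus DMSO in log2(FPKM + 1), was -0.12, 0.03 and -0.15 for MRPL genes in replicates 1, 2 and 3. For MRPS genes it was -0.13, 0.02 and -0.12, and for all tested genes 0.01, 0.02 and -0.00. The median of MRPL minus that of MRPS was 0.01, 0.01 and -0.03 in the 3 replicate numbers. Each is a pair of single libraries, so no test stands behind these medians.

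**Figure D2:**
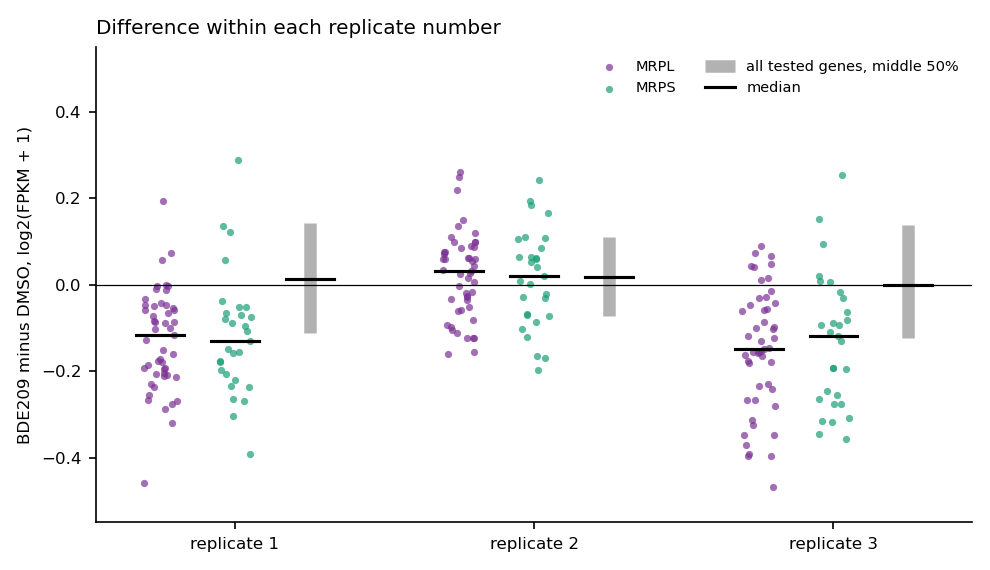
Difference BDE209 minus DMSO in log2(FPKM + 1) within each replicate number, 1 point per member (MRPL purple, MRPS green), with medians as black bars and the middle 50% of all 11223 tested genes as grey bars. The medians of both subunits lie between -0.15 and -0.12 in replicates 1 and 3 and between 0.02 and 0.03 in replicate 2.

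In both replicates 1 and 3 the value was lower in BDE209 for 63 members, 40 of the 49 MRPL and 23 of the 29 MRPS, against 35.1% of all genes. For 37 of these it was higher in replicate 2, against 17.7% of all genes. It was higher in both for 6 members, 2 MRPL and 4 MRPS, against 37.9% of all genes. With no overlap among these 4 libraries, both BDE209 values lay below both DMSO values in 35 members (23 MRPL and 12 MRPS), against 23.6% of all genes. They lay above in 4 members, all MRPS, against 28.5% of all genes. The 2 MRPL genes higher in both were MRPL17 and MRPL19. MRPL17, of a bacterial family, had 32.5, 65.3 and 29.8 FPKM in BDE209, against 31.2, 66.1 and 29.4 FPKM in DMSO, a difference that is small beside the replicate 2 shift. MRPL39 and MRPL40 had the largest positive differences of MRPL genes over all 6 libraries besides MRPL22, at 0.03 each. Across members the 2 differences correlated at r = 0.445, with 0.268 among the 49 MRPL and 0.671 among the 29 MRPS. Across all tested genes r was 0.727. The genes share their libraries, so these are descriptions.

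**Figure D3:**
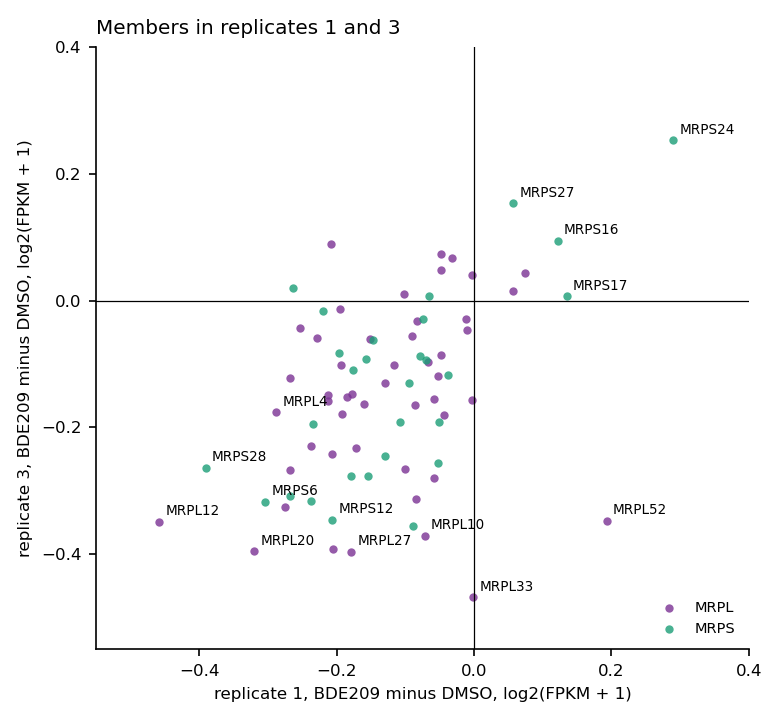
Difference BDE209 minus DMSO in log2(FPKM + 1) in replicate 1 (horizontal) and replicate 3 (vertical), 1 point per member, MRPL in purple and MRPS in green, with 14 members labelled. The lower left holds 63 of the 78 members, and MRPS24 lies farthest to the upper right.

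In limma on replicates 1 and 3 alone, 4 libraries, 6.68% of 11101 genes were called, 2.28% lower and 4.4% higher in BDE209. Of the members 1 was called, MRPL20 (ENSG00000242485), of a bacterial large subunit family. It had 125.2, 327.3 and 118.7 FPKM in BDE209 replicates 1 to 3, against 156.6, 346.2 and 156.5 FPKM in DMSO replicates 1 to 3. BDE209 was lower in every replicate number, with ratios of 0.800, 0.945 and 0.759, but both replicate 2 libraries were more than double the others. On replicates 1 and 3 the difference was -0.36 ± 0.07 (SE, n = 2 each), with a limma adjusted p of 0.0305, and over all 6 libraries it was -0.27 ± 0.50 (SE, n = 3 each), with a limma adjusted p of 1.00. MRPL20 has 1 pseudogene named after it and is overlapped by an antisense gene, whose reads cannot be told from its own where strand use is not stated. Of 77 members in the RefSeq table of genes, 32 are overlapped by another gene on either strand. At an unadjusted p under 0.05 this fit had 13 members lower and 1 higher, against 9.22% of all genes lower and 21.7% in either direction.

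In 2 members (2.56%), MRPL4 and MRPL10 of the large subunit, all 3 BDE209 values lay below all 3 DMSO values. For all genes the share was close, at 2%, and above all 3 DMSO values lay 0 members, against 3.22%. The groups cannot separate in this way where both replicate 2 libraries lie above or below the other 4. That was so in 74 and 1 of the 78 members, against 29.8% and 42.6% of all genes, so these shares are not a like comparison. MRPL4 (ENSG00000105364), whose bacterial relative reaches toward the peptidyl transferase centre, had 77.0, 84.4 and 81.6 FPKM in BDE209, against 94.2, 94.1 and 92.3 FPKM in DMSO. Its means were 81.0 ± 3.75 FPKM in BDE209 and 93.5 ± 1.06 FPKM in DMSO (SD, n = 3 each). The difference was -0.21 ± 0.13 (SE) with a limma adjusted p of 1.00. MRPL10 (ENSG00000159111), which anchors the stalk that recruits translation factors, had 23.1, 22.7 and 19.0 FPKM in BDE209, against 24.3, 23.7 and 24.9 FPKM in DMSO. The nearest libraries of the groups were thus 23.1 FPKM in BDE209 and 23.7 FPKM in DMSO, and the exact permutation test, two-sided, gave p = 0.1, the smallest that 3 against 3 allows. MRPL4 and MRPL10 were the MRPL genes whose replicate 2 libraries stood least above the others, by 0.05 and 0.03 in mean log2(FPKM + 1). The lack of overlap depends on this, so it does not mark a larger treatment difference than in other members.

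In all 3 replicate numbers BDE209 was lower in 26 members (17 MRPL and 9 MRPS), against 17.3% of all genes, and higher in 2, against 21.9%. The 2 were MRPS16 and MRPS27. MRPS27 (ENSG00000113048), a pentatricopeptide repeat protein of the small subunit, had 20, 14.5 and 20.1 FPKM in BDE209, against 19.2, 13.9 and 17.9 FPKM in DMSO. It was the only member with lower levels in both replicate 2 libraries than in the other 4. MRPS16, of a bacterial small subunit family, had 35.9, 46.5 and 35.8 FPKM in BDE209, against 32.9, 45.8 and 33.5 FPKM in DMSO. Ranked by the smallest of their 3 differences, the members most below DMSO in every number were MRPL27, MRPL37 and MRPL4 in the large subunit and MRPS2, MRPS12 and MRPS34 in the small one. MRPL37, which has no bacterial relative, had 115.5, 148.6 and 116.2 FPKM in BDE209, against 139.4, 159.9 and 140.0 FPKM in DMSO.

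**Figure D4:**
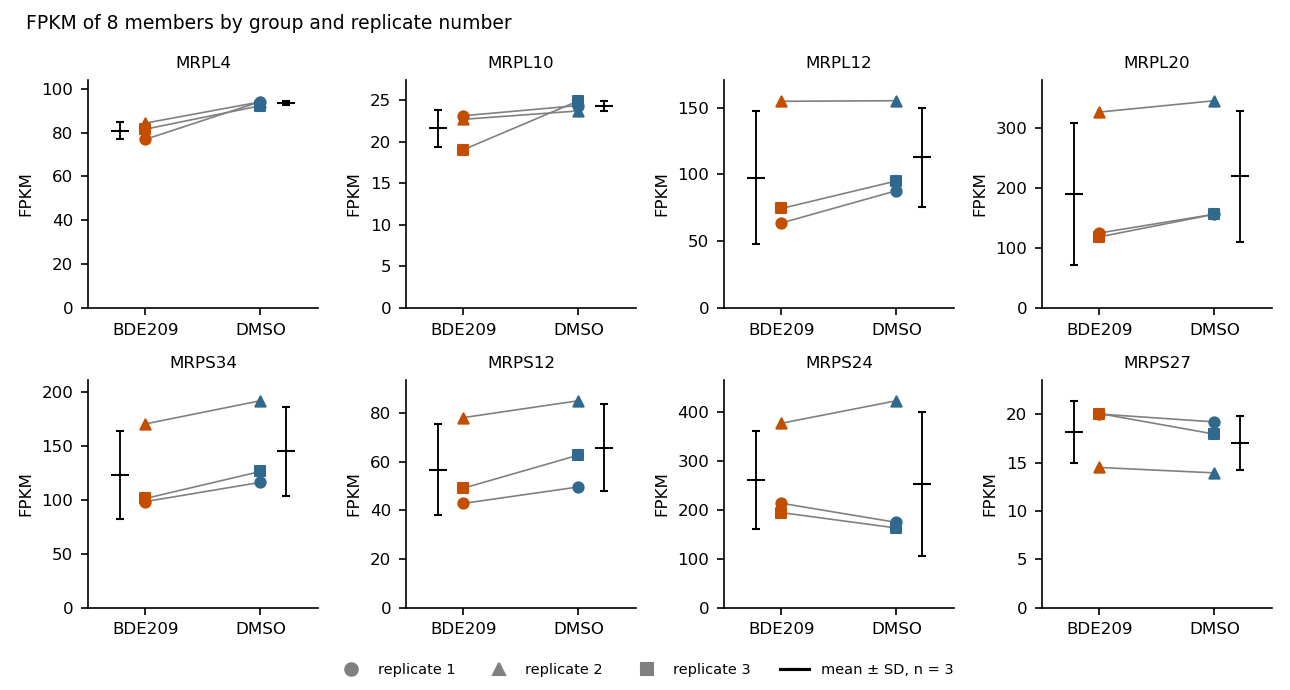
FPKM of 8 members, BDE209 left and DMSO right in each panel, with grey lines joining libraries of the same replicate number and black bars for mean ± SD (n = 3). MRPL4 and MRPL10 show groups that do not overlap, MRPS24 has BDE209 above DMSO in replicates 1 and 3 only, and MRPS27 is low in replicate 2.

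Among the 3 proteins of the stalk or its base, the treatment values differed. MRPL12 (ENSG00000262814), whose copies form the mobile stalk, had 63.6, 154.7 and 74.5 FPKM in BDE209, against 87.8, 155.2 and 95.1 FPKM in DMSO. Its replicate 1 difference of -0.46 was the most negative of all members in that replicate, its replicate 2 difference was -0.00, and its limma adjusted p on replicates 1 and 3 was 0.0538. MRPL11, at the base of the stalk, had 40.5, 75.3 and 39.0 FPKM in BDE209, against 41.5, 72.1 and 37.2 FPKM in DMSO, so BDE209 lay on both sides of DMSO. The exact permutation test over 6 libraries, two-sided, gave p = 0.5 for MRPL12 and p = 0.8 for MRPL11. Like the other exact permutation tests here, it exchanged libraries without regard to replicate number, so the replicate 2 spread enters its p. In limma the SE of the difference was 0.39 for MRPL12 and 0.35 for MRPL11 over 6 libraries, and 0.09 and 0.05 with the replicate block.

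The bacterial relatives of 4 members, MRPL2, MRPL3, MRPL4 and MRPL16, reach toward the peptidyl transferase centre. All 4 were lower in BDE209 in both replicates 1 and 3, with a median difference of -0.18 in replicate 1 and -0.16 in replicate 3. Of all members 80.8% and of all genes 35.1% were lower in both, so no site here or below is singled out. MRPL3 had 142.9, 216.7 and 127.6 FPKM in BDE209, against 161.7, 207.9 and 141.4 FPKM in DMSO. Of the 6 members around the exit tunnel, 5 were lower in both. MRPL24 had 102.6, 226.9 and 87.9 FPKM in BDE209, against 124.4, 208.6 and 110.4 FPKM in DMSO, while MRPL22 had 10.96, 24.6 and 9.96 FPKM in BDE209, against 10.99, 23.5 and 9.66 FPKM in DMSO. MRPL45, which ties the large subunit to the inner membrane, had 31.6, 38.6 and 27.7 FPKM in BDE209, against 33.5, 37.7 and 28.4 FPKM in DMSO.

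Of the 9 members of the central protuberance, the crown of the large subunit, 7 were lower in both replicates 1 and 3, and their median difference was -0.09 in replicate 1 and -0.28 in replicate 3. MRPL27, of a bacterial family whose tail enters the peptidyl transferase centre, had 56.7, 127.1 and 51.6 FPKM in BDE209, against 64.3, 138.5 and 68.2 FPKM in DMSO. MRPL58, which frees stalled chains as a peptidyl-tRNA hydrolase, had 42.3, 83.9 and 36.2 FPKM in BDE209, against 48.9, 85.8 and 47.8 FPKM in DMSO. MRPL52 differed between replicates, with 51.5, 117.3 and 46.4 FPKM in BDE209 and 45.0, 109.5 and 59.2 FPKM in DMSO, higher in BDE209 in replicate 1 and lower in replicate 3.

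On the small subunit, 7 members line the decoding site or the path of the messenger RNA. Of these 6 were lower in BDE209 in both replicates 1 and 3, where 80.8% of all members were. MRPS12 (ENSG00000128626), of the family at the decoding centre, had 42.9, 78.1 and 49.1 FPKM in BDE209, against 49.6, 84.99 and 62.7 FPKM in DMSO. MRPS11 had 16.8, 33.0 and 15.8 FPKM in BDE209, against 20.4, 35.5 and 19.9 FPKM in DMSO. MRPS2 had 41.1, 49.5 and 38.0 FPKM in BDE209, against 46.6, 56.9 and 41.1 FPKM in DMSO. In all 3 genes BDE209 was lower within every replicate number, with groups that overlapped across numbers.

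The seventh, MRPS24 (ENSG00000062582), went the other way. It had 213.3, 376.5 and 194.3 FPKM in BDE209, against 174.4, 422.4 and 162.8 FPKM in DMSO. BDE209 was 1.22-fold and 1.19-fold DMSO in replicates 1 and 3 and 0.891-fold in replicate 2. On replicates 1 and 3 its difference was 0.27 ± 0.08 (SE, n = 2 each) with a limma adjusted p of 0.107, and it was the only member higher at an unadjusted p under 0.05 in that fit. The annotation also lists a read-through gene, URGCP-MRPS24, over the same place, so reads of both may have been merged or split.

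Outside these sites, MRPS34 (ENSG00000074071), a small subunit protein with no bacterial relative, had 98.5, 170.5 and 101.4 FPKM in BDE209, against 116.3, 191.9 and 126.4 FPKM in DMSO. BDE209 was lower in each replicate number, and EME2 overlaps the gene. MRPS28 had 27.3, 78.2 and 24.1 FPKM in BDE209, against 36.1, 69.5 and 29.2 FPKM in DMSO. MRPS6 had 50.5, 84.6 and 45.7 FPKM in BDE209, against 62.5, 71.4 and 57.2 FPKM in DMSO. Both were lower in BDE209 in replicates 1 and 3 and higher in replicate 2.

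The S18 family has 3 mitochondrial copies, of which MRPS18A sits in the large subunit and MRPS18B and MRPS18C sit in the small one. MRPS18A had 32.7, 59.6 and 40.9 FPKM in BDE209, against 39.4, 62.6 and 40.3 FPKM in DMSO. MRPS18B had 45.7, 63.7 and 44.5 FPKM in BDE209, against 48.9, 60.9 and 48.7 FPKM in DMSO, and MRPS18C had 35.9, 107.3 and 30.6 FPKM in BDE209, against 37.6, 99.4 and 30.4 FPKM in DMSO. No copy differed in the same direction in all 3 replicate numbers, and the exact permutation tests, two-sided, gave p = 0.7, p = 0.6 and p = 0.9. MRPS30, the other protein of the large subunit under a small subunit name, had 26.2, 32.9 and 25.2 FPKM in BDE209, against 31.0, 31.4 and 29 FPKM in DMSO, with an exact permutation p of 0.4. MRPS36 had 11.9, 34.5 and 8.97 FPKM in BDE209, against 13.1, 30.1 and 10.8 FPKM in DMSO.

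Members of bacterial families and members without a bacterial relative gave similar values. MRPS36 and, though of the S18 family, MRPS18A were counted in neither class. Of the 47 in bacterial families 38 were lower in BDE209 in both replicates 1 and 3, with median differences of -0.11 and -0.13. Of the 29 without, 24 were lower in both, with median differences of -0.15 in each. Of the 36 members with a pseudogene named after them, 29 were lower in both, and of the 42 without one 34 were.

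The replicate 2 libraries stood apart in these genes whatever the treatment. The shift, the mean log2(FPKM + 1) of both replicate 2 libraries minus the mean of the other 4, had a median of 0.95 in MRPL genes, 0.71 in MRPS genes and -0.10 in all tested genes. It was above 0 in 77 of 78 members, all but MRPS27 at -0.41. Both replicate 2 libraries lay above the other 4 in 74 members, against 29.8% of all genes, and below them in 1, against 42.6%. When FPKM were scaled to the same sum in every library, the median over all genes moved to -0.55 and that of the members to 0.40. The distance between members and all genes was then 0.95, close to the 0.98 of the deposited values, and 62 members lay above 0.

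MRPL33 (ENSG00000243147), of a bacterial family with a very short protein, had the highest shift at 1.92, with 72.2, 275.0 and 50.6 FPKM in BDE209, against 72.2, 231.3 and 70.4 FPKM in DMSO. Next were MRPL53 at 1.61, MRPS18C at 1.60 and MRPS36 at 1.46. The lowest after MRPS27 were MRPL10 at 0.03 and MRPL4 at 0.05, then MRPS30 at 0.20 among MRPS genes. The members closest to the median profile over the 6 libraries, by correlation of log2(FPKM + 1), were MRPL47, MRPL50 and MRPL14. MRPL47 had 46.9, 100.9 and 42.4 FPKM in BDE209, against 52.5, 99.2 and 47.6 FPKM in DMSO.

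Members have short transcripts, with a median of 1034 bases against 1788 bases over all tested genes, in the GENCODE v29 annotation. The tested genes were divided by length into 4 classes of equal size. In the shortest class, up to 995 bases, the 35 members there had a median shift of 1.02, against 0.12 for all genes of that class. In the second class, up to 1788 bases, the 36 members had a median of 0.71, against 0.08. Shift and length correlated at a Spearman rho of -0.443 across the 78 members and -0.369 across all tested genes, which share their libraries. Within both classes the median of the members thus lay above that of all genes. For the treatment difference, the 35 members of the shortest class had medians of -0.10, 0.06 and -0.16 in replicates 1, 2 and 3, against -0.02, 0.02 and -0.03 for all genes of that class. Whether transcript length, RNA quality or library making has a part in these differences was not tested.

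**Figure D5:**
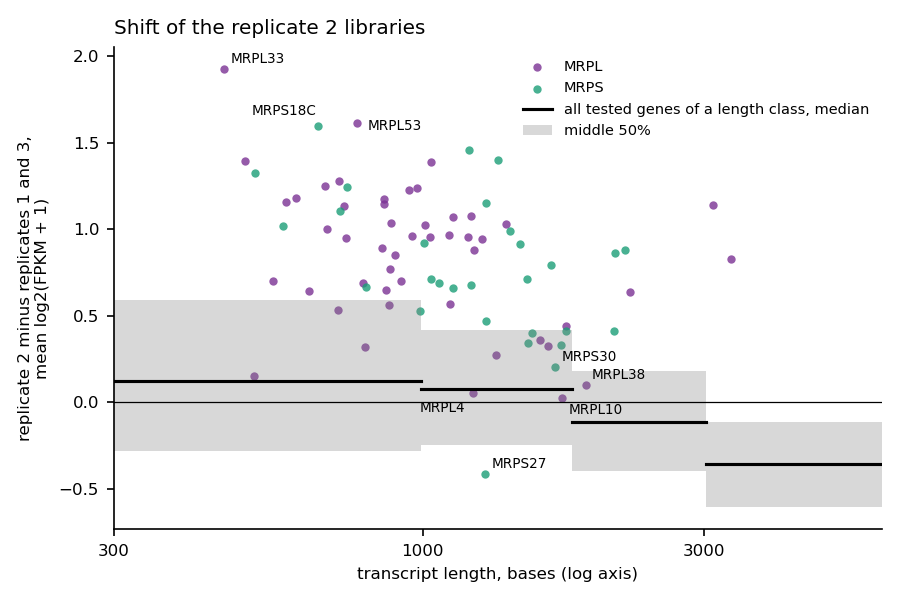
Shift of the replicate 2 libraries (mean log2(FPKM + 1) of replicate 2 minus that of replicates 1 and 3) against transcript length in bases (log axis), 1 point per member, MRPL in purple and MRPS in green, with the median (black) and middle 50% (grey) of all tested genes in each of 4 length classes, drawn to the limits of the plot. The members lie above 0 except MRPS27, while the medians of all genes run from 0.12 in the shortest class to -0.36 in the longest.

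Genes of the cytosolic ribosome and of the respiratory chain were set beside the members. The 82 tested cytosolic ribosomal protein genes had median differences of -0.08, 0.03 and -0.10 in replicates 1, 2 and 3 and a shift of 1.06. The 76 nuclear genes of the respiratory chain and ATP synthase had -0.11, 0.08 and -0.12 and a shift of 1.01. In each list 61 genes were lower in BDE209 in both replicates 1 and 3, where 35.1% of all genes were. On those replicates limma called 2 cytosolic ribosomal protein genes lower, RPS26 at -0.36 (adjusted p = 0.0429) and RPL39L at -0.32 (adjusted p = 0.0471), and RPL39L has a near-identical copy in RPL39. It called 1 respiratory gene lower, ATP5MC1, which codes for the ring of ATP synthase, at -0.45 (adjusted p = 0.0130). These were 2.44% of the tested cytosolic ribosomal protein genes and 1.32% of the respiratory ones. Of all genes 2.28% were called lower in that fit, so neither list is singled out. ATP5MC1 had 109.3, 304.5 and 113.7 FPKM in BDE209, against 153.9, 303.6 and 151.6 FPKM in DMSO.

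The mitoribosome also holds proteins that carry other names, and all 5 of these listed here, DAP3, PTCD3, AURKAIP1, CHCHD1 and GADD45GIP1, were lower in BDE209 in replicates 1 and 3. AURKAIP1, of the small subunit, had 190.9, 371.5 and 192.8 FPKM in BDE209, against 237.4, 362.9 and 238.1 FPKM in DMSO. It was called on replicates 1 and 3, at -0.31 ± 0.07 (SE, n = 2 each) with a limma adjusted p of 0.0452. Of 15 translation factors 9 were lower in both, and TUFM, the elongation factor that brings transfer RNAs, had 143.8, 157.7 and 143.0 FPKM in BDE209, against 156.4, 162.2 and 160.2 FPKM in DMSO. Of 28 assembly factors 16 were lower in both and 4 higher. Of 13 genes of mitochondrial transcription and RNA handling 7 were lower in both and 1 higher, and of 20 genes for charging transfer RNAs 8 were lower and 3 higher. The shares lower in both were 60%, 57.1%, 53.8% and 40% in these 4 lists. Of all genes 35.1% were lower in both and 37.9% higher. Of the genes in these 4 lists, limma called 0 on the 6 libraries and 0 on replicates 1 and 3. Of all genes it called 0% and 6.68%. The shift was smaller in these lists, with medians of 0.39, 0.38, 0.51 and 0.12.

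Of 10 regulators tied to mitochondrial biogenesis, 8 were tested and 0 called in any of the 3 fits. Of all genes 0% were called on the 6 libraries, with or without the replicate block, and 6.68% on replicates 1 and 3. The 0 among 8 genes thus does not show that the regulators were unchanged. NRF1 had 5.33, 5.56 and 5.15 FPKM in BDE209, against 5.71, 5.17 and 5.09 FPKM in DMSO. GABPA had 10.3, 8.68 and 9.31 FPKM in BDE209, against 8.88, 7.16 and 9.63 FPKM in DMSO, and MYC had 23.4, 26.7 and 24.4 FPKM in BDE209, against 25.8, 28.8 and 25.8 FPKM in DMSO. PPARGC1A was listed at 0.18 FPKM or less in every library. C1QBP, a matrix protein tied to mitochondrial translation, had 92.1, 197.8 and 112.2 FPKM in BDE209, against 114.0, 175.6 and 127.2 FPKM in DMSO.

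Of the 69 members with a listed promoter, 27 (39.1%) had a gene on the other strand that started within 1000 bases, against 31.0% of tested genes. MRPS11 and MRPL46, of different subunits, start 320 bases apart and point away from each other. MRPL46 had 20.1, 44.4 and 19.3 FPKM in BDE209, against 22.8, 43.9 and 22.9 FPKM in DMSO, and both genes were lower in BDE209 in replicates 1 and 3. MRPS12 and SARS2, which charges mitochondrial transfer RNA with serine, start 181 bases apart, at either end of the stretch printed above. SARS2 had 8.81, 9.49 and 11.2 FPKM in BDE209, against 9.44, 9.98 and 11.5 FPKM in DMSO, and its replicate 2 shift was -0.06, where that of MRPS12 was 0.68. Of the 20 members with a tested neighbour 16 were lower in BDE209 in both replicates 1 and 3, as were 12 of the neighbours. For all genes the share was 35.1%. The shift was above 0 in 13 of the 20 neighbours, with a median of 0.24, against 42.6% of all genes and a median of -0.10. MRPS11 and MRPL46, each the neighbour of the other, are members counted among these neighbours, both as lower and as above 0.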

How the data were processed

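RNA-seq values of 6 libraries were used as deposited. Per the file headers, the deposited files list human Ensembl identifiers with their FPKM. The submitters' processing notes name RSEM, Bowtie2 and Bowtie 0.12.2, and as builds mm10 and mm8, which are mouse builds. Not given in the sources used here are a human build, strand use and how multiply matching reads were handled. Of 16614 rows per file, the 40 rows of 20 repeated identifiers were left out. Of the 16574 genes kept, 16535 matched a symbol.

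Differences are BDE209 minus DMSO in log2(FPKM + 1), which understates the change of low genes. They were tested over 11223 genes with limma 3.58.1 in R 4.3.3 (trend, robust, treatment only, two-sided), which was first tested on simulated data. The simulated spread was taken from replicates 1 and 3 and held no replicate 2 shift. It therefore does not show how well the fit finds differences in the real libraries, where that shift counts as error. Intervals of counting error and depth cannot be given, since low FPKM showed no steps of whole reads. The replicate numbers come from the titles and were used to pair the samples. The deviations of same-numbered libraries from their group means had correlations of 0.738 (number 1), 0.875 (number 2) and 0.824 (number 3) over the tested genes. Numbers 1 and 3 also correlated across groups, at 0.646 (BDE209 1 with DMSO 3) and 0.644 (BDE209 3 with DMSO 1), while number 2 against the others was at -0.755 or lower. Deviations within a group cancel out, so with number 2 apart in both groups, numbers 1 and 3 tend to correlate whether paired or not. The pairing is thus clear for number 2 only. The labels do not say what a number shares.

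The members and gene lists were chosen with earlier results of these data known, so no test was run on a list. Members were named by level, size and sign of difference, replicate 2 shift and likeness to the median profile, up to 3 per subunit in each, with a few always named for their role; further members were added to show a role. Sequences were matched to RefSeq by symbol. Alternatives were other pseudocounts, filters and scalings, a replicate block, limma without trend, replicates 1 and 3 alone, and each library left out.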

Additional observations from a re-analysis of the deposited data

How the results depend on the processing

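The number of members called stayed at 0 in limma under the replicate block, a pseudocount of 0.1, both other filters, both scalings, limma without trend and robust, and each library left out, and was 1 on replicates 1 and 3 alone. Over all genes it was 0 with the block, 741 on replicates 1 and 3 alone, and 0 to 1 with a library left out. With a library left out, the median difference over 6 libraries ran from -0.37 (without BDE209 replicate 2) to 0.18 (without DMSO replicate 2) for MRPL genes and from -0.36 to 0.15 for MRPS genes, at the same libraries. It was also above 0 without BDE209 replicate 1 (0.058 and 0.025) and without BDE209 replicate 3 (0.10 and 0.10). On replicates 1 and 3 alone it was -0.14 for MRPL genes and -0.12 for MRPS genes. With the replicate block these medians stayed at -0.08 and -0.07, and without the members that have a named pseudogene, a setting chosen after seeing the data, they were -0.07 and -0.09. The replicate 2 shift was 0.46 in MRPL genes and 0.23 in MRPS genes with FPKM scaled to the same sum, and 1.08 and 0.85 with scaling by median ratio. The gap between the subunits in replicate 1, large minus small, was 0.01 by symbol and -0.028 with MRPS18A and MRPS30 counted as large and MRPS36 left out. Of 17 members examined under every setting, MRPS18C reversed with scaling by median ratio (-0.014) and on replicates 1 and 3 alone (-0.029). With a library left out, 9 turned sign: MRPL11 from -0.27 to 0.32, MRPL20 from -0.74 to 0.11, MRPL27 from -0.64 to 0.12, MRPL58 from -0.57 to 0.062, MRPS16 from -0.043 to 0.23, MRPS18A from -0.33 to 0.11, MRPS18B from -0.22 to 0.051, MRPS18C from -0.54 to 0.53 and MRPS27 from -0.042 to 0.23. With a library left out, replicate 2 makes up a different share of each group by construction.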
